A study of Homo sapiens with 6 samples.

Results

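The genes described here are 10 transcripts by which cells restrain the ERK mitogen-activated protein kinase pathway or respond to it. They comprise 5 dual-specificity phosphatase genes (DUSP1, DUSP4, DUSP5, DUSP6 and DUSP10), 2 Sprouty genes (SPRY2 and SPRY4), 2 SPRED genes (SPRED1 and SPRED2) and the ETS transcription factor gene ETV5. They were taken as the probe sets whose platform annotation names exactly 1 of these genes and no other, which gave 25 of 54613 probe sets and 10 of 19775 genes. All 10 had at least 1 probe set of their own, and no filter on low values removed any.

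The arrays came from ARPE-19 cells, an established human line derived from retinal pigment epithelium, grown in medium with 10% serum. There were 3 arrays of cells given SRPIN803 at 10 µM and 3 of cells given the solvent alone (0.1% DMSO), each for 4 h. The compound inhibits SRPK1, which phosphorylates splicing factors, and protein kinase CK2. Nothing in the labels tells if the replicates were grown separately, and the spread behind each p-value may therefore be technical.

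ERK is the last kinase of a relay that runs from growth factor receptors through RAS, RAF and MEK. Active ERK switches on genes that shut the relay down again: DUSP proteins remove phosphate from ERK and its relatives JNK and p38, while Sprouty and SPRED proteins act upstream, at the level of receptors, RAS and RAF. Because several of these transcripts are short-lived and depend on ERK, a fall of DUSP6, SPRY4 or ETV5 is widely used as a sign that ERK output has dropped. The comparison asks whether these transcripts differed after SRPIN803. Phosphorylated ERK was not analysed here.

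Values are RMA log2 levels, 1 per probe set and array, so a difference of 1 is a 2-fold change. Array medians lay between 5.25 and 5.28, and the lowest correlation of any pair of arrays across probe sets was 0.9940. Of 11 measured markers of pigment epithelium, 8 lay at or above the median level of 5.27, among them BEST1, RLBP1 and TTR, whereas the visual cycle genes RPE65 and LRAT and the pigment gene TYRP1 lay below it. Of the pigment epithelium markers MITF was called, at a log2 change of 0.35, and their summed level on the linear scale was 3277 to 3400.4 in SRPIN803 arrays and 2715 to 2970.3 in DMSO arrays. No marker of simple epithelium, fibroblasts, endothelium, leukocytes or neurons was called by limma. At or above the median level were 2 of 5 measured markers of simple epithelium and 3 of 6 of fibroblasts. For endothelium the count was 2 of 5 and for leukocytes 1 of 4, so this level does not mark pigment epithelium alone. The summed fibroblast markers were 1053 to 1550.0 in SRPIN803 arrays and 1512 to 2058 in DMSO arrays, which overlap. The summed neuron and photoreceptor markers, of which 1 of 5 lay at or above the median level, were 404.9 to 413.6 in SRPIN803 arrays and 362.1 to 388.0 in DMSO arrays, which do not. The part of these shifts in the values below was not tested.

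None of the 10 ERK feedback genes changed past the threshold. Each gene was read from its brightest probe set, and limma called 0 of 10 at an adjusted p under 0.05, against 5.84% of all genes (3.46% higher and 2.37% lower in SRPIN803). At an unadjusted p under 0.05 the count was 3 of 10 genes, against 19.5% of all genes. The log2 changes ran from -0.18 for SPRED2 to 0.30 for DUSP1, 5 above and 5 below 0, with a median of 0.02, the same as the median of 0.02 over all genes. Their median size without sign was 0.12, against 0.09 over all genes. The 95% confidence intervals of all 10 lay between -0.32 and 0.49, that is, from 1.25-fold lower to 1.41-fold higher. The groups did not overlap in 2 of 10 genes, against 25.6% of all genes. DUSP1 was the 1 with SRPIN803 above (15.2% of all genes) and SPRED2 the 1 with SRPIN803 below (10.4% of all genes).

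**Figure D1:**
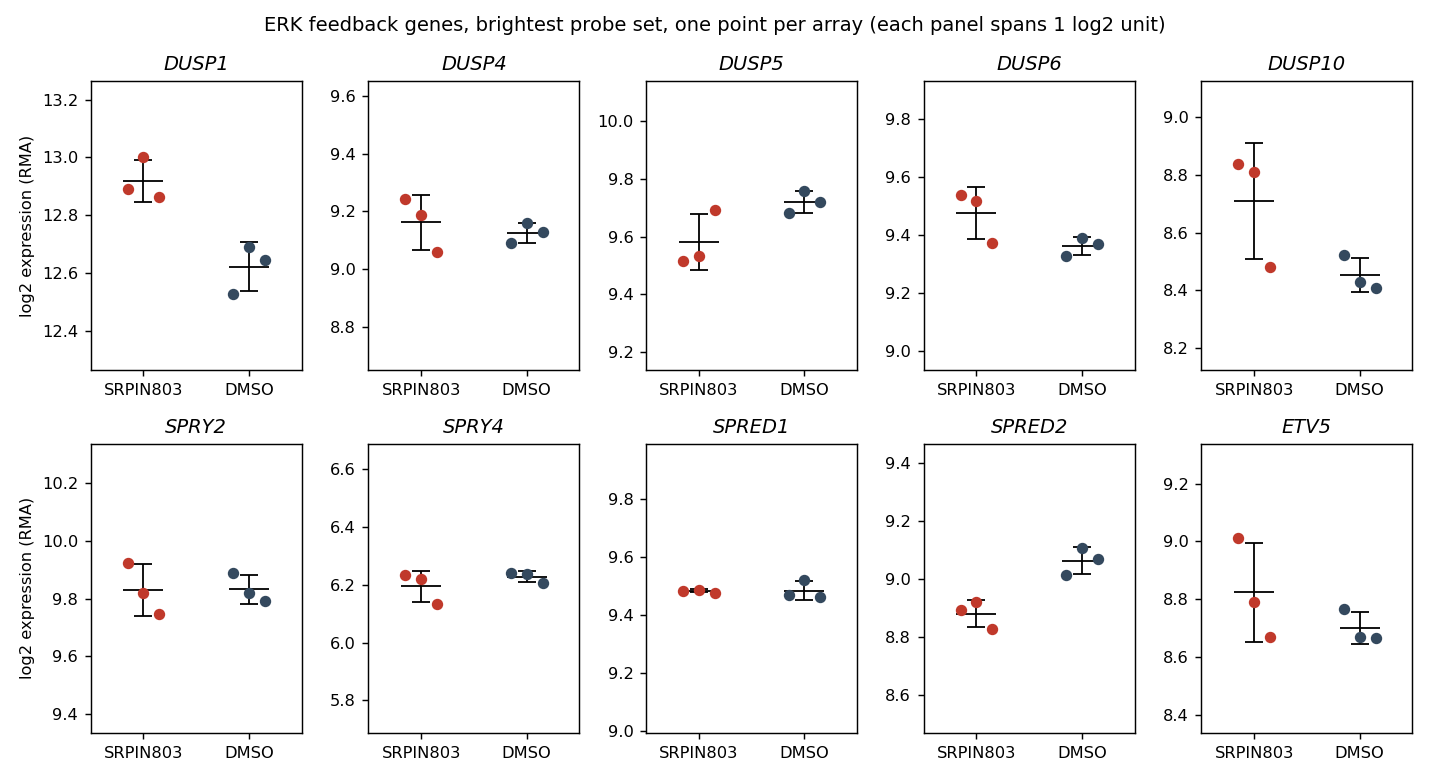
Log2 level of each ERK feedback gene (vertical axis, brightest probe set, every panel spanning 1 log2 unit) in the 3 SRPIN803 arrays (left, red) and the 3 DMSO arrays (right, blue), with bars for mean and SD. Groups are apart for DUSP1, with SRPIN803 higher, and for SPRED2, with SRPIN803 lower, and overlap for the other 8 genes.

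DUSP1 encodes a nuclear phosphatase that is made within minutes of growth factor or stress signals and acts on p38 and JNK as well as ERK. It had the largest difference of the 10 genes. Its level was 12.89, 13.00 and 12.86 in SRPIN803 arrays, against 12.53, 12.69 and 12.65 in DMSO arrays. All 3 SRPIN803 arrays lay above all DMSO arrays. The difference of 0.30 ± 0.07 (limma's standard error), a 1.23-fold higher mean (95% interval 1.10 to 1.38), missed the threshold at an adjusted p of 0.0526. It passed when only genes at or above the median level were tested (adjusted p = 0.0203) or when the variance was modelled with a trend on the level (adjusted p = 0.00341), and it was at 0.20 with an adjusted p of 0.301 with the mean of its 3 probe sets. Over the 6 fits that left out 1 array its adjusted p ran from 0.0960 to 0.150.

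The DUSP1 promoter is shown because this gene came nearest to the threshold. The stretch is the 250 bases before the RefSeq start, chr5:172771196-172771445 on the minus strand of GRCh38.p14, written 5′ to 3′ along the gene with matches to the searched motifs in capitals.
DUSP1: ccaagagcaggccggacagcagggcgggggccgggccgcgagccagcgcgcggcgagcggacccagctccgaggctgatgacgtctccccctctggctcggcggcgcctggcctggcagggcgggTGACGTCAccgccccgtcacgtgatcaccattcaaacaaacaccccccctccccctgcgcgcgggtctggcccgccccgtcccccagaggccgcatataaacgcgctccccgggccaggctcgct
The capitals mark a full cyclic AMP response element, TGACGTCA, from base -125 to base -118, which reads the same on both strands. Of 35116 RefSeq windows of the same length, 1.65% hold this element. Of the 7 ERK feedback genes with a window in the table (11 windows in all), DUSP1 was the 1 that held it. The ETS hexamer CCGGAA was found for SPRY2 alone and is in 14.5% of all windows. Other forms of the ETS site were not searched. The AP-1 site TGANTCA (6.57% of windows), the EGR site GCGTGGGCG (0.72%) and the SRF-bound CArG box (1.16%) were found on neither strand in any of these 7 genes' windows. DUSP4, DUSP5 and ETV5 had no entry.

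DUSP10 encodes a phosphatase that prefers JNK and p38 over ERK. Its level was 8.84, 8.81 and 8.48 in SRPIN803 arrays, against 8.52, 8.43 and 8.41 in DMSO arrays. SRPIN803 replicates 1 and 2 were above all DMSO arrays, and replicate 3 was within their range. The difference was 0.26 ± 0.10 (adjusted p = 0.219). Without SRPIN803 replicate 3 it was 0.37 and passed the threshold (adjusted p = 0.0480). The other DUSP10 probe set gave 7.72, 7.97 and 7.49 in SRPIN803 arrays and 7.46, 7.51 and 7.49 in DMSO arrays, a difference of 0.24 ± 0.12, with replicate 3 again within the DMSO range.

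DUSP6 encodes the cytoplasmic phosphatase that is specific for ERK. Its level was 9.54, 9.52 and 9.37 in SRPIN803 arrays, against 9.33, 9.39 and 9.37 in DMSO arrays. The groups overlapped, and the difference was 0.11 ± 0.07 (95% interval -0.04 to 0.27, adjusted p = 0.412), or 0.0045 with the mean of its 3 probe sets. Its 2 other probe sets, both above the median level, were at -0.02 ± 0.09 and -0.09 ± 0.13, so the 3 probe sets had no common sign.

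DUSP4 and DUSP5 encode inducible nuclear phosphatases, and the DUSP5 protein is specific for ERK. DUSP4 was at 9.24, 9.19 and 9.06 in SRPIN803 arrays and 9.09, 9.16 and 9.13 in DMSO arrays. The DMSO values lay within the range of the SRPIN803 values, with a difference of 0.04 ± 0.07 (adjusted p = 0.830). Its other probe sets were at -0.13 ± 0.10 and -0.16 ± 0.09. DUSP5, measured by 1 probe set, was at 9.52, 9.53 and 9.69 in SRPIN803 arrays and 9.68, 9.76 and 9.72 in DMSO arrays. SRPIN803 replicates 1 and 2 were below all DMSO arrays and replicate 3 was not, which gave a difference of -0.14 ± 0.07 (adjusted p = 0.321).

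Sprouty proteins are induced by growth factors and block the step between receptor and RAF. SPRY2 was at 9.92, 9.82 and 9.75 in SRPIN803 arrays and 9.89, 9.82 and 9.79 in DMSO arrays. The groups covered nearly the same range, and the difference was -0.0021 ± 0.068 (95% interval -0.16 to 0.16, adjusted p = 0.991). SPRY4 was at 6.23, 6.22 and 6.13 in SRPIN803 arrays and 6.24, 6.24 and 6.21 in DMSO arrays. The groups overlapped here too, with a difference of -0.03 ± 0.06 (95% interval -0.17 to 0.10, adjusted p = 0.820). Each of these genes was measured by 1 probe set, and both lay above the median level, SPRY4 by the smaller margin.

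SPRED proteins are membrane-bound relatives of Sprouty, and SPRED1 is known to bring the RAS inhibitor neurofibromin to the membrane. SPRED1 was at 9.48, 9.49 and 9.48 in SRPIN803 arrays and 9.47, 9.52 and 9.46 in DMSO arrays, a difference of -0.0010 ± 0.054 (95% interval -0.13 to 0.12, adjusted p = 0.995). The SRPIN803 arrays fell inside the DMSO range. Its dimmest probe set, at a mean level of 5.70, had the largest difference of all 25 probe sets. That probe set was at 5.60, 5.55 and 5.41 in SRPIN803 arrays and 5.92, 5.89 and 5.80 in DMSO arrays, all SRPIN803 arrays below all DMSO arrays. Its difference of -0.35 ± 0.08 missed the threshold over all probe sets (adjusted p = 0.0686) and passed it with probe sets under the median level left out (adjusted p = 0.0226). With the mean of all 3 probe sets SPRED1 was at -0.16 (adjusted p = 0.136).

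SPRED2 was at 8.89, 8.92 and 8.83 in SRPIN803 arrays and 9.01, 9.11 and 9.07 in DMSO arrays. All SRPIN803 arrays were below all DMSO arrays, but the difference of -0.18 ± 0.06 (a fold of 1.14 lower, 95% interval 1.03 to 1.25) was not called (adjusted p = 0.132). Its 2 other probe sets lay below the median level, at 0.14 ± 0.11 and 0.07 ± 0.11, and with the mean of all 3 probe sets SPRED2 was at 0.0096 (adjusted p = 0.965).

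ETV5 encodes an ETS factor whose transcription follows ERK activity in many cell types. Its level was 9.01, 8.79 and 8.67 in SRPIN803 arrays, against 8.76, 8.67 and 8.67 in DMSO arrays. SRPIN803 replicates 1 and 2 were above all DMSO arrays and replicate 3 was within their range. The difference was 0.12 ± 0.09 (95% interval -0.09 to 0.34, adjusted p = 0.542). It was at 0.030 without SRPIN803 replicate 1 (adjusted p = 0.882), at 0.20 without replicate 3 (adjusted p = 0.296) and at 0.059 with the mean of its probe sets. The 4 other ETV5 probe sets, 1 of them below the median level, ran from -0.01 to 0.07.

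Over all 25 probe sets of the 10 genes, limma called 0, against 2.22% of all probe sets (1.19% higher and 1.03% lower in SRPIN803). At an unadjusted p under 0.05 the count was 4 of 25, against 15.6% of all probe sets. The groups did not overlap in 3 of 25, against 21.5% of all probe sets. SRPIN803 was above in 1 (11.3% of all probe sets) and below in 2 (10.1% of all probe sets). DUSP1, with 3 probe sets, and DUSP10, with 2, had higher SRPIN803 means on all of them, and the 3 of SPRED1 all had lower means. A test of whether probe sets of a gene moved apart (limma's diffSplice) left out probe sets under the median level and those with names ending in _x_at, a mark of probes that may match several transcripts. It covered 6 of the genes, those with at least 2 such probe sets, and called 0 of them, against 186 of 5529 genes tested. The lowest diffSplice p-values of the 6 were those of SPRED1 (unadjusted p = 0.00956, adjusted p = 0.133) and DUSP1 (unadjusted p = 0.0417, adjusted p = 0.278). SPRED1 passed without SRPIN803 replicate 1 (adjusted p = 0.0389). The DUSP1 value rests on 2 of its 3 probe sets, and with the _x_at probe set kept its adjusted p was 0.769. With dim probe sets kept the test covered SPRED2 too (adjusted p = 0.356) and again called none of the set.

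**Figure D2:**
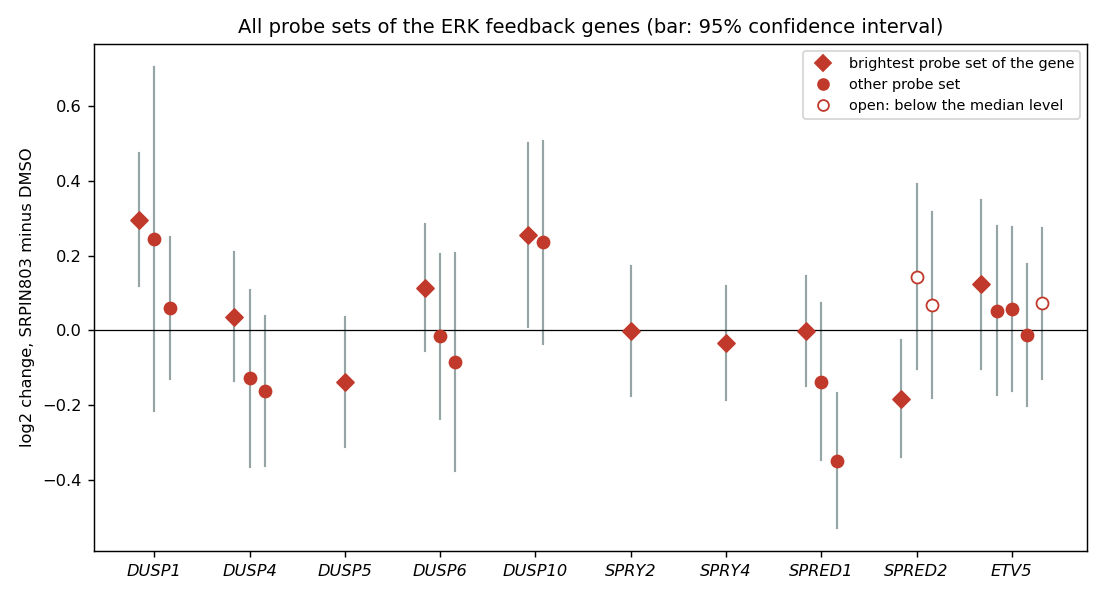
Log2 change (SRPIN803 minus DMSO, vertical axis) of all 25 probe sets of the ERK feedback genes, ordered within each gene by falling level, with 95% confidence intervals as bars. Diamonds are the brightest probe sets, open symbols the 3 below the median level; values run from -0.35 for the dimmest SPRED1 probe set to 0.30 for the brightest DUSP1 probe set.

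SRPIN803 replicate 3 was the lowest of the 3 SRPIN803 arrays for 9 of the 10 genes, all but DUSP5, while it was the lowest for 33.9% of all genes. In the DMSO group replicates 1 and 3 were each the lowest for 5 genes. The genes share their arrays, so these counts are a description. Without SRPIN803 replicate 3 the changes of DUSP6 and DUSP4 were 0.17 and 0.09, with adjusted p of 0.244 and 0.548, and DUSP10 passed as given above.

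Differences in response between the genes were set out as 6 pairs, each taken as the difference of 2 log2 values within an array and compared between groups by a two-sided exact permutation test. With 3 arrays against 3 this exact test cannot go below p = 0.1. SPRED1 minus SPRED2 was 0.60 ± 0.04 in SRPIN803 arrays and 0.42 ± 0.03 in DMSO arrays (SD, n = 3 each), a shift of 0.18 (exact p = 0.1, adjusted p = 0.15 over the 6 pairs), which turned to -0.17 with the mean of all probe sets. DUSP6 minus DUSP5 shifted by 0.25, DUSP6 minus DUSP4 by 0.08 and DUSP6 minus DUSP1 by -0.18, each with groups that did not overlap and the same exact p. SPRY2 minus SPRY4 shifted by 0.03 (exact p = 0.5) and ETV5 minus DUSP6 by 0.0091 (exact p = 0.9).

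The genes whose values over the 6 arrays ran most like those of DUSP6 were C16orf46, USP49 and HACD2, with root mean square differences of 0.02, 0.02 and 0.03 after centring each gene, among 12601 genes at or above the median level. Their log2 changes of 0.10, 0.09 and 0.15 are tied to that of DUSP6 by this choice.

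Related genes of the pathway were read from 8 lists, and 89 of their 100 genes were analysed. Of the 89, 2 rose and 5 fell, against 3.46% of all genes called higher and 2.37% called lower, with a median log2 change of 0.0072. At an unadjusted p under 0.05 there were 28 of 89 (31.5%, against 19.5% of all genes). The lists describe where in the pathway called genes stood next to the 10 feedback genes. They were chosen with earlier results of these data known. The shares given here and for each list below are therefore a description and not a test of the lists.

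Among 13 other phosphatases of MAP kinases 0 rose and 1 fell, with 5 of 13 at an unadjusted p under 0.05 (38.5%, against 19.5% of all genes). That gene was DUSP7, a close relative of DUSP6 whose protein acts on ERK. It was at 8.37, 8.49 and 8.41 in SRPIN803 arrays and 8.69, 8.91 and 8.73 in DMSO arrays, with all SRPIN803 arrays lower. The difference was -0.35 ± 0.08 (adjusted p = 0.0380), and leaving out any 1 array ended the call (highest adjusted p 0.110). Its other probe set was at -0.29 ± 0.12 with overlapping groups, and the mean of both missed the threshold (adjusted p = 0.0654). The list's median was -0.12.

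Among the 3 other Sprouty and SPRED genes 0 rose and 1 fell. At an unadjusted p under 0.05 there was 1 of 3 (33.3%, against 19.5% of all genes). The gene in both counts was SPRY1, which encodes an inhibitor of receptor signalling like SPRY2 and SPRY4. SPRY1 was at 5.50, 5.65 and 5.49 in SRPIN803 arrays and 6.33, 6.24 and 6.32 in DMSO arrays. The groups lay far apart relative to their spread, with a difference of -0.75 ± 0.07, a fold of 1.68 lower (95% interval 1.51 to 1.88, adjusted p = 0.00205). It stayed called with any 1 array left out, at -0.80 to -0.72. Its second probe set, below the median level, was at -0.67 ± 0.14, also with groups that did not overlap (adjusted p = 0.0612 over all probe sets). SPRY1 minus SPRY2 within arrays was -4.28 ± 0.13 in SRPIN803 arrays and -3.54 ± 0.05 in DMSO arrays (SD, n = 3 each). That pair was chosen after its values were seen, with 2 others (DUSP7 minus DUSP6, shifted by -0.47, and ERF minus ETV5, shifted by -0.68), and all 3 reached the smallest exact permutation p the design allows, 0.1.

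Among 10 other ETS factors 0 rose and 1 fell, with 2 at an unadjusted p under 0.05 (20%, against 19.5% of all genes). ERF, a repressor that ERK phosphorylates and sends out of the nucleus, was at 7.34, 7.45 and 7.51 in SRPIN803 arrays and 8.03, 7.97 and 7.98 in DMSO arrays. The groups were apart, and the difference of -0.55 ± 0.06 (adjusted p = 0.00503) stayed called with any 1 array left out. Its other probe set, below the median level, was at -0.13 ± 0.08, and the mean of both was at -0.34 (adjusted p = 0.0231).

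The ERK relay itself held no called gene in this fit. Of 16 members of the cascade, from adaptors to ERK's own substrate kinases, limma called 0, with 3 at an unadjusted p under 0.05 (18.8%, against 19.5% of all genes). Closest were the kinase gene MKNK2 at -0.22 ± 0.06 (adjusted p = 0.0774) and the adaptor gene GAB1 at 0.28 ± 0.10 (adjusted p = 0.151). MKNK2 passed with only genes at or above the median level tested (adjusted p = 0.0292) and with the variance trend (adjusted p = 0.00907), and was at -0.10 on its brightest probe set not ending in _x_at or _s_at. Of 12 growth factor receptor genes limma also called 0, with 4 at an unadjusted p under 0.05 (33.3%, against 19.5% of all genes). EGFR was at -0.32 ± 0.08 (adjusted p = 0.0656) and MET, the receptor of hepatocyte growth factor, at 0.24 ± 0.06 (adjusted p = 0.0588), each with groups that did not overlap. Under the same pair of settings as for MKNK2 both passed, EGFR at adjusted p of 0.0281 and 0.00958 and MET at 0.0208 and 0.00408. With the mean of probe sets EGFR was at -0.11 and MET at 0.0045. The 9 probe sets of EGFR ran from -0.48 to 0.12 and the 4 of MET from -0.40 to 0.24. The EGFR probe sets next in level to its brightest were at -0.48 ± 0.12, with groups that did not overlap, and -0.22 ± 0.11, with overlap. The dimmer EGFR probe sets ran from -0.13 to 0.12, all with overlap.

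Of 10 other regulators of the relay, most of them brakes on receptors or RAS, limma called 0. At an unadjusted p under 0.05 there were 3 (30%, against 19.5% of all genes). The pseudokinase gene TRIB1 was at -0.28 ± 0.07 (adjusted p = 0.0668) and the receptor inhibitor gene LRIG1 at -0.28 ± 0.08 (adjusted p = 0.0855). Both passed with only genes at or above the median level tested (TRIB1 adjusted p = 0.0274, LRIG1 0.0375) and with the variance trend (TRIB1 0.0173, LRIG1 0.0250). With the mean of probe sets TRIB1 was at -0.056 and LRIG1 at -0.023. The 2 other probe sets of TRIB1, at 0.02 and 0.10, and the 3 others of LRIG1, from -0.10 to 0.22, all lay below the median level. Of 7 JNK and p38 kinases and their activators 1 rose and 0 fell, with 2 at an unadjusted p under 0.05 (28.6%, against 19.5% of all genes). MAPK8, which encodes the kinase JNK1, was at 9.18, 9.12 and 9.21 in SRPIN803 arrays and 8.82, 8.93 and 8.78 in DMSO arrays. Its difference of 0.32 ± 0.06 (adjusted p = 0.0310) was no longer called when any 1 array was dropped (highest adjusted p 0.130) or with the mean of its probe sets (0.28, adjusted p = 0.0551), and all 5 of its probe sets had higher SRPIN803 means.

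**Figure D3:**
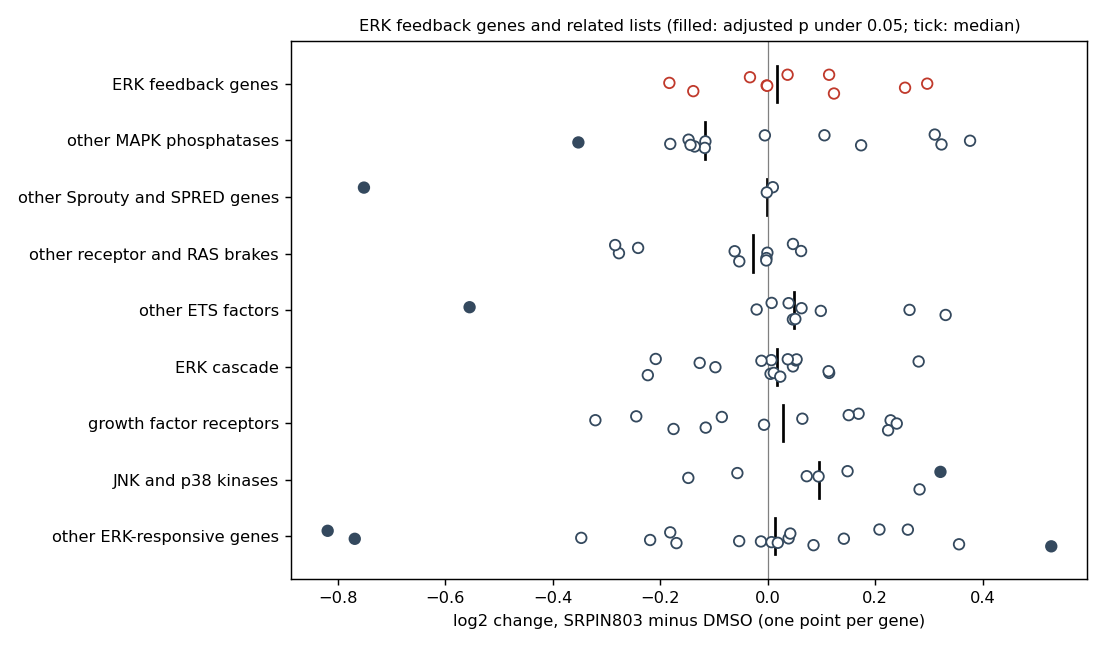
Log2 change (SRPIN803 minus DMSO, horizontal axis) of each gene in the ERK feedback set (red) and in 8 related lists (blue), with filled points for adjusted p under 0.05 and a vertical tick at each median. The feedback genes lie between -0.18 and 0.30 with none filled, and the 7 filled genes of the lists lie between -0.82 and 0.53.

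Of 18 other genes known to respond to ERK, 1 rose and 2 fell, with a median of 0.01 and 8 of 18 at an unadjusted p under 0.05 (44.4%, against 19.5% of all genes). EGR1, an immediate early zinc finger factor, was at 7.11, 7.61 and 7.60 in SRPIN803 arrays and 8.14, 8.38 and 8.25 in DMSO arrays. All SRPIN803 arrays were lower, with a difference of -0.82 ± 0.14 (adjusted p = 0.0192), and the call was lost without DMSO replicate 2 (adjusted p = 0.0819) or DMSO replicate 3 (adjusted p = 0.0779). The dimmer EGR1 probe sets also had groups apart. In the probe set fit the brighter of them was called lower (-0.84 ± 0.11, adjusted p = 0.0119). The dimmest, under the median, was not (-0.81 ± 0.18, adjusted p = 0.0668). Averaged over its probe sets, EGR1 stayed called (-0.82, adjusted p = 0.0110). HBEGF, which encodes a ligand of the EGF receptor, was at 8.31, 8.68 and 8.47 in SRPIN803 arrays and 9.12, 9.27 and 9.38 in DMSO arrays, again with all SRPIN803 arrays lower. Its difference was -0.77 ± 0.11 (adjusted p = 0.00942), at -0.30 (adjusted p = 0.0728) with the mean of its 4 probe sets. In the probe set fit its second brightest probe set was called lower too (-0.75 ± 0.10, adjusted p = 0.0123), with groups apart. The 2 others lay below the median level, at 0.17 and 0.13, with overlapping groups. ODC1, the first enzyme of polyamine synthesis, was at 13.08, 13.11 and 13.00 in SRPIN803 arrays and 12.56, 12.50 and 12.53 in DMSO arrays. It rose by 0.53 ± 0.06 (adjusted p = 0.00448) and, unlike EGR1, stayed called with any 1 array left out, as did HBEGF.

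**Figure D4:**
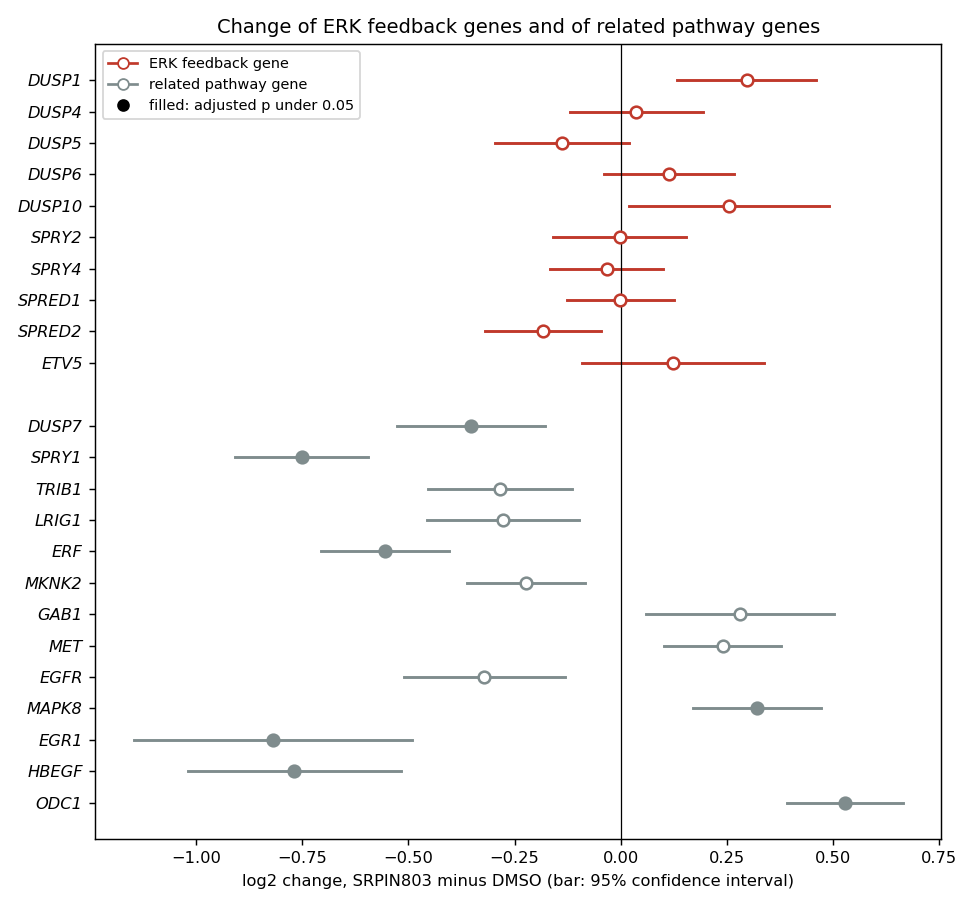
Log2 change (SRPIN803 minus DMSO, horizontal axis) with 95% confidence intervals for the 10 ERK feedback genes (red, above) and the 13 named genes of the related lists (grey, below), filled where the adjusted p was under 0.05. All 10 feedback intervals lie between -0.32 and 0.49, and the whole intervals of SPRY1, ERF, EGR1 and HBEGF lie to the left of that range.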

How the data were processed

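Expression was measured on Affymetrix 3' arrays. The log2 values deposited by the authors, 1 per probe set and array, come from RMA, per the submitters' processing notes, which name no software or options. RMA compresses changes of dim probe sets, and quantile normalization (sorted values differed by at most 0.14 between arrays) hides changes in total RNA per cell. Array number, 3 per group, limits the precision.

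Of 54675 probe sets 62 were controls, 41091 named 1 gene, 1801 several, and 11721 are unnamed here. Each gene was represented by its brightest probe set. Members and gene lists were chosen with earlier results of these data known, so nothing was adjusted over a list alone. limma 3.58.1 in R 4.3.3 compared groups (lmFit and eBayes, 4 residual degrees of freedom, two-sided, Benjamini-Hochberg over all genes or probe sets, called under 0.05). Errors beside log2 changes are its standard errors. The fits were tested on simulated data.

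All 10 genes were named, as were, per list, up to 4 called genes with the largest change, or up to 2 with the lowest p in a list without calls. The 3 genes most like DUSP6 were taken because no member was called. Promoter windows came from RefSeq (GRCh38.p14). Plots used matplotlib 3.10.9. Alternatives covered the replicate block, left-out arrays, dim features, probe set choice, normalization, variance models, array weights and the threshold.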

Additional observations from a re-analysis of the deposited data

How the results depend on the processing

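Whether arrays with the same replicate number belong together is not known. Deviations from the group means correlated at 0.14, -0.07 and 0.07 for replicates 1, 2 and 3. Of the 6 arrays, 3 correlated best with their own number, and these few values cannot decide it. With the replicate block 689 genes and 304 probe sets were called, in place of 1154 and 1214, and 0 ERK feedback genes or probe sets, as without it; of the related genes named, MAPK8 lost its call (adjusted p = 0.0808). With any 1 array left out the calls were 324 to 687 genes, 215 to 716 probe sets, 0 to 1 ERK feedback genes (DUSP10, without SRPIN803 replicate 3) and 0 ERK feedback probe sets. Testing features at or above the median level alone called 1904 genes and 2672 probe sets, with 1 ERK feedback gene (DUSP1) and 2 such probe sets (DUSP1 and SPRED1). A variance trend called 1965 and 2731, with 1 gene and 1 probe set of the set (DUSP1), and a threshold of 0.1 called 1991 and 2492, with 1 gene (DUSP1) and 1 probe set (SPRED1). The dim-gene filter and the trend also brought MKNK2, EGFR, MET, TRIB1 and LRIG1 under 0.05. Repeated quantile normalization, median centring, robust variances, array weights and both other probe set choices called 0 of the 10 genes. SPRED1 changed sign with quantile normalization (0.011) and array weights (0.0018), and DUSP4 (-0.084), SPRED2 (0.0096) and SPRED1 minus SPRED2 (-0.17) with the mean of probe sets, which put SPRED1 at -0.16.

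With any 1 array left out the log2 change ran from -0.0034 to 0.089 for DUSP4, -0.049 to 0.040 for SPRY2, -0.012 to 0.018 for SPRED1 and 0.030 to 0.20 for ETV5. Among the dimmer probe sets it ran from -0.081 to 0.051 and -0.22 to 0.024 for DUSP6, -0.016 to 0.19 for SPRED2, and -0.023 to 0.11 and -0.073 to 0.029 for ETV5. ETV5 minus DUSP6 ran from -0.053 to 0.059. The number of genes whose probe sets moved apart ran from 41 to 289, with 0 to 1 ERK feedback genes (SPRED1, adjusted p = 0.0389, without SRPIN803 replicate 1). The cause of these shifts was not tested. The width of the intervals given depends on the number of arrays, 3 per group, and on each gene's spread between arrays.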
